A study of Mus musculus with 8 samples.

Results

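The class II olfactory receptor genes of mouse chromosome 7 were examined in RNA sequencing of dissected olfactory epithelium. The set holds every deposited count row whose symbol begins with Olfr and that lies on chromosome 7 outside a fixed interval, between Olfr521 and Olfr693, that holds the class I receptors. It has 111 genes among 1110 receptor rows of 25913 genes in all. The class I interval held 129 of the other receptor rows, and other chromosomes held 870.

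The study asked how RNAs of the olfactory epithelium differ when Igf1r, which encodes a receptor for insulin-like growth factors, is deleted in sensory neurons of the nose. The mice were C57BL/6J and 40 weeks old. There were 4 libraries titled OMP_IGF1R (11, 12, 17 and 18) and 4 libraries titled IGF1R_flfl (1, 2, 3 and 13). The titles name OMP, a protein of mature olfactory sensory neurons, and a floxed Igf1r allele. The labels describe no further allele, no Cre line and no treatment. The genotype labels contradict the titles, since the OMP_IGF1R libraries are marked as controls and the IGF1R_flfl libraries as knockouts. Groups are therefore called by their titles, and every fold change sets OMP_IGF1R over IGF1R_flfl. Igf1r averaged 42.1 ± 6.32 CPM in the libraries titled OMP_IGF1R and 66.5 ± 7.65 CPM in those titled IGF1R_flfl (SD, n = 4 each). That is a log2 fold change of -0.66 (edgeR adjusted p = 0.0117), so Igf1r was lower in the libraries whose titles name OMP, against their genotype labels. CPM relate the counts of a gene to the library size after TMM scaling.

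Olfactory receptors are G protein-coupled receptors of the sensory neurons in the nose. A mature neuron expresses mainly a single receptor gene, from a single allele, so the RNA of a receptor in bulk tissue depends on how many neurons chose it and how much each makes. Class I receptors resemble those of fish, and class II receptors, the larger group, are typical of land vertebrates. Receptor genes lie in clusters, and a receptor is expressed in a restricted zone of the epithelium. In bulk epithelium, fewer neurons with a receptor and less receptor RNA per neuron cannot be told apart.

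Members were split into 6 clusters where the gap between neighbouring starts exceeded 1 Mb, numbered along the chromosome (GRCm38 coordinates of the deposited file). Cluster 1 held 8 genes from 6439836 to 6570919 and cluster 2 held 2 genes from 84853573 to 84916728. Cluster 3 held 15 genes from 86268730 to 86695384 and cluster 4 held 2 genes from 99735145 to 99768130. Cluster 5 held 65 genes from 106677534 to 108894420 and cluster 6 held 19 genes from 140161939 to 140705267. RefSeq synonyms placed the members in 24 MOR families, the sequence families of mouse odorant receptors. By these names 109 members belong to class II families. The other two, Olfr503 (MOR34) and Olfr504 (MOR40), carry class I family names, and their coding sequences were closest to Olfr658 (97.1% identity) and Olfr657 (95.5%) of the class I interval. Both were at 0 counts in every library. At the limits of the rule, Olfr521 inside averaged 0.0973 ± 0.0901 CPM in OMP_IGF1R and 0.768 ± 0.529 CPM in IGF1R_flfl libraries, and Olfr543 outside averaged 1.78 ± 1.3 CPM in OMP_IGF1R and 0.157 ± 0.064 CPM in IGF1R_flfl libraries (SD, n = 4 each). At the upper limit, Olfr693 inside averaged 3.95 ± 0.748 CPM in OMP_IGF1R and 5.67 ± 0.626 CPM in IGF1R_flfl libraries, while Olfr692 outside averaged 0.282 ± 0.268 CPM in OMP_IGF1R and 0.271 ± 0.0644 CPM in IGF1R_flfl libraries.

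Receptor genes of a family can be so alike that a read may belong to more than 1 of them, and sequences are shown here for the sets where this bears on a value. They are 150-base stretches of the GRCm38 coding sequence from GENCODE M21, and capitals mark the bases at which the genes of a set differ. The MOR252 genes of cluster 6 include the abundant members Olfr533 (chr7:140466503-140466652, plus strand) and Olfr536 (chr7:140504008-140504157, minus strand), and the less abundant Olfr530 (chr7:140373159-140373308, minus strand). They differ at 5 positions of this stretch.
Olfr533: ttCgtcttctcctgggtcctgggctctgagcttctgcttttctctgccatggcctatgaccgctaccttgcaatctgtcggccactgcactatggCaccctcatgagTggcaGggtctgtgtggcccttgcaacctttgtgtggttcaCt
Olfr530: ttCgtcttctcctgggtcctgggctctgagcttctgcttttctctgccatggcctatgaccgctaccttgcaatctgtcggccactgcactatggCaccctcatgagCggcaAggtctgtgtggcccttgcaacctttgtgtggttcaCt
Olfr536: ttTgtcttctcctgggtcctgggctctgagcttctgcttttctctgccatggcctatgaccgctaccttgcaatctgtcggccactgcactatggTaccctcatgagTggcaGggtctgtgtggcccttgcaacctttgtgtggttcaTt

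The MOR260 genes Olfr1532-ps1 (chr7:106914500-106914649, plus strand), Olfr707 (chr7:106891658-106891807, minus strand) and Olfr709-ps1 (chr7:106927008-106927157, minus strand) include a pair of near copies, since Olfr1532-ps1 and Olfr707 are identical over the stretch and 98.9% identical over 921 aligned bases. Olfr709-ps1 differs from both at 14 positions.
Olfr1532-ps1: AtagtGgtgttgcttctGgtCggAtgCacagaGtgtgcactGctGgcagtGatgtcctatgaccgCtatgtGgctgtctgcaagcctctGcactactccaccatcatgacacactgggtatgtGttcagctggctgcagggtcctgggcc
Olfr707: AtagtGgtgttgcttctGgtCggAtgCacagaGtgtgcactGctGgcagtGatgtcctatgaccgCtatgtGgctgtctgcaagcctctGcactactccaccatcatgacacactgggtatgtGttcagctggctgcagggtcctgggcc
Olfr709-ps1: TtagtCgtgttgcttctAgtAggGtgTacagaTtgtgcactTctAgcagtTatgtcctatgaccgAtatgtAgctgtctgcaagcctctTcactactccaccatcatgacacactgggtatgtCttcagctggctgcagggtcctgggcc

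The MOR254 genes Olfr291 (chr7:84856665-84856814, plus strand) and Olfr290 (chr7:84916075-84916224, plus strand) make up cluster 2. They differ at 1 position of the stretch and were 97.6% identical over 943 aligned bases.
Olfr291: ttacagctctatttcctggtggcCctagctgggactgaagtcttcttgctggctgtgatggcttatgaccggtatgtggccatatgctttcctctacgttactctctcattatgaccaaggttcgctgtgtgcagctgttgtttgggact
Olfr290: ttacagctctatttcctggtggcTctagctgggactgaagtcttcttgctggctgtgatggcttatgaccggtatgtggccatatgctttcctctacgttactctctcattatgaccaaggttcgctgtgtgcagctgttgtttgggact

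Sequence sharing was measured against 1190 receptor coding sequences. Reads were 100 bases long, and 64 of the 111 members shared no window of 100 bases with another receptor. The other 47 shared at least 1 window, 19 of them more than 10% of their windows. Where a near full-length alignment was found, the closest receptor had a median identity of 91.4%.

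The members were expressed at low levels, as is usual of receptor genes in whole epithelium. Of the 111 members, 81 passed the filter on low counts and were tested and 30 were not tested, with at most 10.75 counts per library on average. Reads were seen in every library for 91 members, and 3 members (Olfr503, Olfr504 and Olfr514) had 0 counts in all, which allows up to 0.109 to 0.153 CPM per library at 3 counts. Tested members averaged 9.125 to 1426 counts per library, with a median of 51.75. Per kilobase, which allows a comparison between genes, the 68 tested members with a deposited span of at most 1200 bases averaged 0.357 to 32.4 CPM per kb over the 8 libraries, with a median of 1.94. Olfr533 was the highest of these in both groups, at 16.4 CPM per kb in OMP_IGF1R and 48.3 CPM per kb in IGF1R_flfl libraries. The order of the next ones differed between the groups. Olfr1348 had 9.11 CPM per kb in OMP_IGF1R and 11.5 CPM per kb in IGF1R_flfl libraries, while Olfr705 had 4.37 CPM per kb in OMP_IGF1R and 13.1 CPM per kb in IGF1R_flfl libraries. Within a group, the CPM of a tested member varied with a median coefficient of variation of 25.8% in OMP_IGF1R and 25.3% in IGF1R_flfl libraries.

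The summed RNA of the members was lower in the libraries titled OMP_IGF1R. All 111 members together made up 279, 277, 282 and 277 CPM in OMP_IGF1R 11, 12, 17 and 18, against 493, 441, 461 and 428 CPM in IGF1R_flfl 1, 2, 3 and 13. There was no overlap, and in this sum of all members the OMP_IGF1R libraries lay within a few CPM of each other. They were less close without Olfr536 and Olfr533, at 207 to 239 CPM. With all 111 members the means were 279 ± 2.31 CPM in OMP_IGF1R and 456 ± 28.3 CPM in IGF1R_flfl libraries (SD, n = 4 each), a ratio of 0.612. This sum is a description with no test. Olfr536 and Olfr533 alone made up 21.2% of the group mean in OMP_IGF1R and 27.1% in IGF1R_flfl libraries. Their share was 22.9%, 25.1%, 23.0% and 13.9% in OMP_IGF1R 11, 12, 17 and 18. It was 37.4%, 23.7%, 23.3% and 22.7% in IGF1R_flfl 1, 2, 3 and 13, so the shares overlapped. OMP_IGF1R 18 and IGF1R_flfl 1 lay apart from the rest. Without these genes the means were 220 ± 13.5 CPM in OMP_IGF1R and 332 ± 18.8 CPM in IGF1R_flfl libraries, a ratio of 0.661. The most abundant 10 members made up 50% of the mean sum in OMP_IGF1R libraries, and the most abundant 9 did so in IGF1R_flfl libraries.

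**Figure D1:**
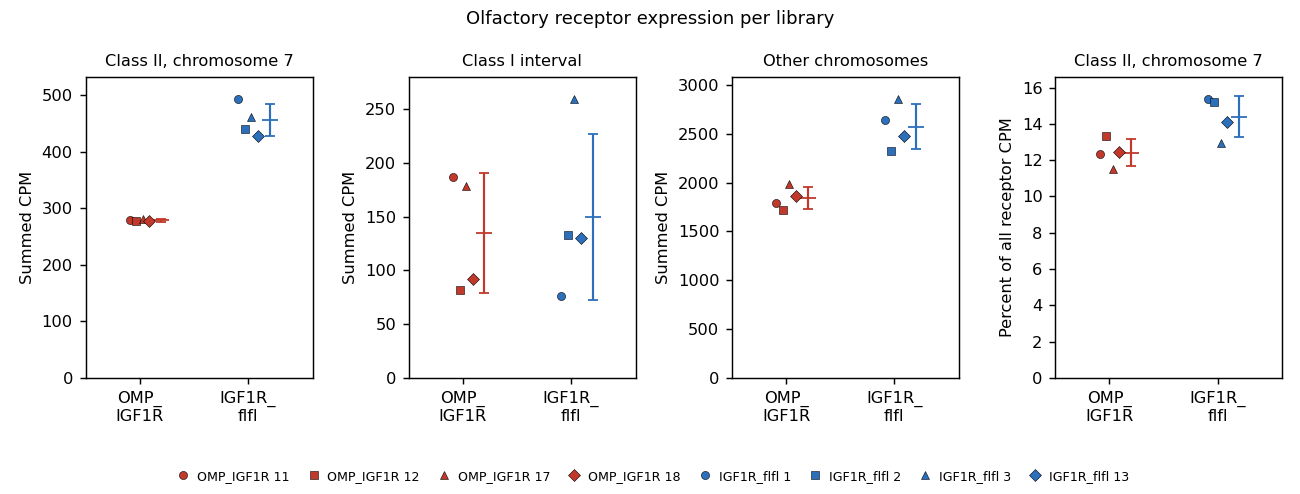
Summed CPM of class II receptors of chromosome 7, class I interval receptors and receptors on other chromosomes per library, and the share of all receptor CPM from the class II receptors of chromosome 7 (points, libraries; bars, mean ± SD, n = 4 each). The chromosome 7 class II sums were 277 to 282 CPM in OMP_IGF1R and 428 to 493 CPM in IGF1R_flfl libraries. The sums on other chromosomes did not overlap either, at 1716 to 1984 CPM in OMP_IGF1R and 2321 to 2850 CPM in IGF1R_flfl libraries. The class I interval sums overlapped.

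Of all receptor CPM, the members made up 12.4%, 13.3%, 11.5% and 12.4% in OMP_IGF1R 11, 12, 17 and 18, against 15.3%, 15.2%, 12.9% and 14.1% in IGF1R_flfl 1, 2, 3 and 13. These shares overlapped between groups by OMP_IGF1R 12 and IGF1R_flfl 3. The sum ratio was 0.901 for the class I interval (135 ± 55.6 CPM in OMP_IGF1R and 150 ± 77.3 CPM in IGF1R_flfl) and 0.715 for receptors on other chromosomes (1838 ± 114 and 2573 ± 227 CPM in the same groups). The sums on other chromosomes, like those of the members, did not overlap between the groups. Against genes of mature olfactory sensory neurons other than Omp, the members came to 26.5, 27.7, 25.0 and 27.0 CPM per 1000 CPM in OMP_IGF1R 11, 12, 17 and 18 and to 29.9, 29.7, 23.5 and 28.1 in IGF1R_flfl 1, 2, 3 and 13. On that scale the groups overlapped, with a ratio of 0.955.

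In the test of single genes, 26 of the 81 tested members were lower in the libraries titled OMP_IGF1R and 0 were higher (edgeR quasi-likelihood test, Benjamini-Hochberg adjusted p under 0.05 over 17381 genes). The lower calls are 32.1% of the tested members. Of all genes tested, 5.37% were called lower, 2.83% higher and 8.20% in either direction. At an unadjusted p under 0.05 there were 40 of 81 members, the 26 called ones and 14 more, against 4083 of the 17381 genes tested. Of these 14, 13 had a negative fold change, and the exception was Olfr1346. DESeq2 called 29 members lower and 0 higher, against 7.76% of all genes lower. These held 25 of the 26, together with Olfr309, Olfr693, Olfr694 and Olfr716. Below, a member not called is one that edgeR did not call. The median log2 fold change of the tested members was -0.52, against -0.012 for all genes, and it turned to 0.12, against 0.63 for all genes, when libraries were scaled to mature neuron genes. In all, 67 of 81 fold changes were negative (82.7%), against 52.5% over all genes tested and 77.3% for receptors on other chromosomes. Among the 26 called members the median was -1.14, and 18 fell by at least 1 on the log2 scale. Among the 81 tested members, the groups did not overlap for 32 that were lower and 0 that were higher in OMP_IGF1R, against 10.3% and 6.57% of all genes tested.

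In the class I interval, 1 of 94 tested receptors was lower and 0 were higher, with a median log2 fold change of -0.14. On other chromosomes 95 of 700 were lower and 5 higher, with a median of -0.34. Whether the members differ from these receptors was not tested. Among tested members, 21 of the 41 with the higher mean CPM were called and 5 of the other 40. Their median log2 fold changes were -0.79 and -0.41. A like fold change is more easily called in a gene with more counts, and the part of this in the split was not tested.

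**Figure D2:**
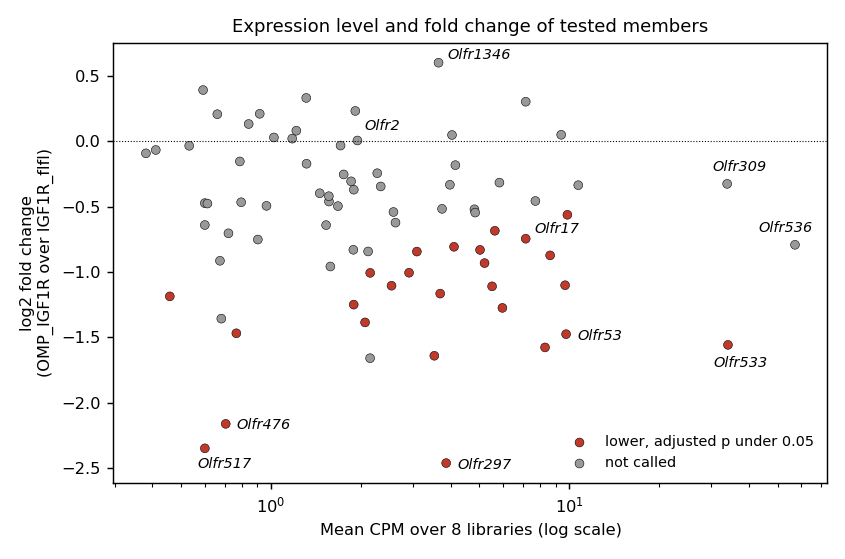
log2 fold change (OMP_IGF1R over IGF1R_flfl) of the 81 tested members against their mean CPM over 8 libraries on a log scale, with called members in red. All 26 called members lie below 0, and Olfr536, the most abundant, was not called.

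Cluster 6 had the largest difference in CPM. Its 19 members were all tested, 9 were lower and 0 higher, and 17 fold changes were negative. The summed level was 122, 118, 120 and 104.1 CPM in OMP_IGF1R 11, 12, 17 and 18, against 278, 203, 209 and 196 CPM in IGF1R_flfl 1, 2, 3 and 13. No library of one group reached the other group, and the ratio was 0.523. IGF1R_flfl 1 stood above the others of its group, as it did for Olfr536 and Olfr533, whose values follow. These abundant genes are part of the cluster sum, and the sum without them is not given.

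Olfr533 (ENSMUSG00000056883, chromosome 7, 140466158 to 140467209), the abundant MOR252 receptor whose stretch is printed above, stood at 18.4, 19.0, 19.6 and 12.3 CPM in OMP_IGF1R 11, 12, 17 and 18, against 62.4, 56.0, 45.3 and 39.7 CPM in IGF1R_flfl 1, 2, 3 and 13. The highest OMP_IGF1R library was below the lowest IGF1R_flfl library. The log2 fold change was -1.56 (SE 0.18, edgeR adjusted p = 0.00325), and the call was kept in all 8 fits that left out 1 library. Its relative Olfr536 (93.8% identity, ENSMUSG00000052508, 140500856 to 140507318) stood at 45.6, 50.5, 45.3 and 26.3 CPM in OMP_IGF1R 11, 12, 17 and 18, against 122, 48.5, 62.1 and 57.3 CPM in IGF1R_flfl 1, 2, 3 and 13. The groups overlapped, since OMP_IGF1R 12 was above IGF1R_flfl 2, and Olfr536 was not called (log2 fold change -0.79, SE 0.30, edgeR adjusted p = 0.143). The third MOR252 gene, Olfr530, averaged 2.05 ± 1.37 CPM in OMP_IGF1R and 3.18 ± 1.16 CPM in IGF1R_flfl libraries and was not called. Olfr533 shared 7.55% of its windows of 100 bases with another receptor, Olfr530 shared 7.91% and Olfr536 shared 0.

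MOR253 receptors lie mostly at the distal end of cluster 6, and 5 of 9 were lower. Their summed level was 31.4 ± 4.02 CPM in OMP_IGF1R and 54.9 ± 2.07 CPM in IGF1R_flfl libraries (SD, n = 4 each), a ratio of 0.571. Olfr53 (140646452 to 140652919) stood at 5.46, 4.52, 6.19 and 4.49 CPM in OMP_IGF1R 11, 12, 17 and 18, against 13.8, 18.2, 10.7 and 14.7 CPM in IGF1R_flfl 1, 2, 3 and 13. The groups were well apart (log2 fold change -1.48, SE 0.18, edgeR adjusted p = 0.00358). Olfr541 (140704165 to 140705267) varied little and stood at 8.27, 7.61, 7.83 and 8.14 CPM in OMP_IGF1R 11, 12, 17 and 18, against 12.5, 12.8, 10.8 and 10.9 CPM in IGF1R_flfl 1, 2, 3 and 13. Its fold change was the smallest of the called members (log2 -0.56, SE 0.09, edgeR adjusted p = 0.00965). Olfr46 averaged 1.72 ± 0.708 CPM in OMP_IGF1R and 5.34 ± 1.40 CPM in IGF1R_flfl libraries (log2 -1.64, edgeR adjusted p = 0.0184, and 0.0593 without OMP_IGF1R 12). Olfr45 averaged 1.61 ± 0.405 CPM in OMP_IGF1R and 3.46 ± 0.458 CPM in IGF1R_flfl libraries (log2 -1.11, edgeR adjusted p = 0.016).

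Olfr535, also MOR253, stood at 4.49, 3.50, 3.94 and 5.34 CPM in OMP_IGF1R 11, 12, 17 and 18, against 7.46, 5.68, 8.05 and 6.59 CPM in IGF1R_flfl 1, 2, 3 and 13. The gap between the groups was narrow, and the call (log2 -0.69, edgeR adjusted p = 0.0353) was lost without any 1 library but OMP_IGF1R 18 or IGF1R_flfl 2, where it reached 0.101. The remaining MOR253 genes, Olfr60, Olfr61, Olfr538 and Olfr539, overlapped between the groups and were not called. Olfr539 varied most, from 0.531 to 3.96 CPM in OMP_IGF1R and from 0.616 to 5.81 CPM in IGF1R_flfl libraries. These 4 genes were named after their values were seen.

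At the proximal end of cluster 6, Olfr523 of the MOR104 family stood at 4.74, 2.86, 2.34 and 4.03 CPM in OMP_IGF1R 11, 12, 17 and 18, against 7.42, 10.7, 9.24 and 6.36 CPM in IGF1R_flfl 1, 2, 3 and 13. The groups did not overlap (log2 -1.28, edgeR adjusted p = 0.0152, and 0.0542 without OMP_IGF1R 12). Olfr531 of the MOR251 family stood at 6.73, 4.82, 5.80 and 7.03 CPM in OMP_IGF1R 11, 12, 17 and 18, against 8.0, 13.1, 12 and 11.5 CPM in IGF1R_flfl 1, 2, 3 and 13. IGF1R_flfl 1 lay closest to the OMP_IGF1R libraries (log2 -0.87, edgeR adjusted p = 0.0187, and 0.0562 without OMP_IGF1R 12). Olfr522 averaged 1.93 ± 0.175 CPM in OMP_IGF1R and 3.88 ± 1.02 CPM in IGF1R_flfl libraries (log2 -1.01, edgeR adjusted p = 0.019, and up to 0.0634 without OMP_IGF1R 11, 12 or 18). It was the only member of MOR103 that was called. Olfr532 of MOR251 was at 0 in OMP_IGF1R 18 and at 0.678 to 1.89 CPM in the other OMP_IGF1R libraries, against 2.18 to 4.06 CPM in IGF1R_flfl libraries, and was not called (log2 -1.66, SE 0.70, edgeR adjusted p = 0.19).

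**Figure D3:**
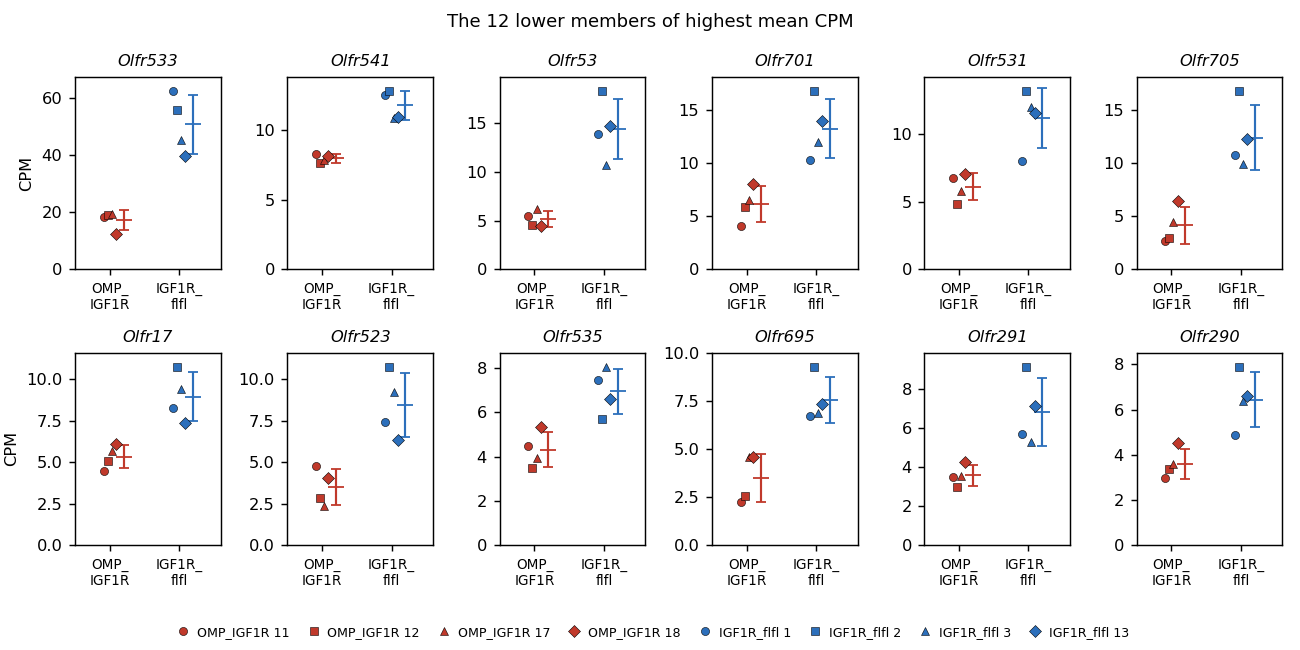
CPM of the 12 called members of highest mean CPM in each library (points, libraries; bars, mean ± SD, n = 4 each). In all 12 panels every OMP_IGF1R library lies below every IGF1R_flfl library, with Olfr533 at 12.3 to 19.6 CPM in OMP_IGF1R and 39.7 to 62.4 CPM in IGF1R_flfl libraries.

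Cluster 5, the largest, lies distal to the class I interval. Of its 65 members 44 were tested, 12 were lower and 0 higher. The summed level averaged 81.7 ± 6.62 CPM in OMP_IGF1R and 127 ± 12.3 CPM in IGF1R_flfl libraries, a ratio of 0.644. Of the 12 calls, MOR283 and MOR204 held 4 each, MOR260 held 2, and Olfr17 and Olfr517 were the others.

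MOR283 had 12 members, of which 10 were tested, 4 were lower and all 10 fold changes were negative. Their summed level was 21.3, 24.6, 27.4 and 32.6 CPM in OMP_IGF1R 11, 12, 17 and 18, against 44.0, 66.3, 50.7 and 54.1 CPM in IGF1R_flfl 1, 2, 3 and 13. Again there was no overlap, and the ratio of means was 0.492. Olfr705 (106873293 to 106874243) stood at 2.70, 2.98, 4.51 and 6.41 CPM in OMP_IGF1R 11, 12, 17 and 18, against 10.8, 16.8, 9.91 and 12.3 CPM in IGF1R_flfl 1, 2, 3 and 13. Both groups were spread, but they did not overlap (log2 -1.58, SE 0.28, edgeR adjusted p = 0.0121). Olfr701 stood at 4.08, 5.88, 6.55 and 8.06 CPM in OMP_IGF1R 11, 12, 17 and 18, against 10.3, 16.7, 12 and 13.9 CPM in IGF1R_flfl 1, 2, 3 and 13. It was called (log2 -1.10, edgeR adjusted p = 0.0161), and without OMP_IGF1R 12 the adjusted p was 0.056.

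Olfr706, the neighbour of Olfr705, averaged 2.27 ± 0.210 CPM in OMP_IGF1R and 5.11 ± 0.819 CPM in IGF1R_flfl libraries (log2 -1.17, SE 0.15, edgeR adjusted p = 0.00467) and kept its call whichever library was left out. Olfr695 stood at 2.24, 2.56, 4.56 and 4.57 CPM in OMP_IGF1R 11, 12, 17 and 18, against 6.74, 9.26, 6.86 and 7.31 CPM in IGF1R_flfl 1, 2, 3 and 13. OMP_IGF1R 17 and 18 lay nearer to the other group than OMP_IGF1R 11 and 12 did (log2 -1.11, edgeR adjusted p = 0.0259, and up to 0.0774 without OMP_IGF1R 11 or 12 or IGF1R_flfl 13). Olfr703, also MOR283, was among the most negative members not called (log2 -0.96, SE 0.44, edgeR adjusted p = 0.23).

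In MOR260, 2 of 6 tested members were lower, all 6 fold changes were negative and the sum ratio was 0.50 (5.19 ± 1.49 CPM in OMP_IGF1R and 10.4 ± 1.36 CPM in IGF1R_flfl). Olfr702 averaged 1.14 ± 0.615 CPM in OMP_IGF1R and 3.0 ± 0.852 CPM in IGF1R_flfl libraries (log2 -1.39, edgeR adjusted p = 0.041, and up to 0.11 without any 1 library but OMP_IGF1R 18). The pseudogene Olfr1532-ps1 averaged 0.398 ± 0.141 CPM in OMP_IGF1R and 1.13 ± 0.0812 CPM in IGF1R_flfl libraries (log2 -1.47, edgeR adjusted p = 0.0133). It shares 80.8% of its windows of 100 bases with other receptors, as the stretch printed above shows for Olfr707, so its counts are uncertain. Olfr707 itself was not tested, at 0.237 ± 0.112 CPM in OMP_IGF1R and 0.275 ± 0.195 CPM in IGF1R_flfl libraries. The other pseudogene, Olfr709-ps1, was at 0.204 to 0.806 CPM in OMP_IGF1R and at 0.876 to 1.09 CPM in IGF1R_flfl libraries and was not called (log2 -1.36, SE 0.41, edgeR adjusted p = 0.0775).

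Olfr17 (ENSMUSG00000073897, 107097467 to 107098414), the P2 receptor long used to trace the wiring of olfactory axons, stood at 4.49, 5.09, 5.66 and 6.11 CPM in OMP_IGF1R 11, 12, 17 and 18, against 8.29, 10.7, 9.44 and 7.36 CPM in IGF1R_flfl 1, 2, 3 and 13. The groups did not overlap (log2 -0.75, SE 0.15, edgeR adjusted p = 0.0179, and up to 0.0602 without OMP_IGF1R 11 or 12). Olfr2 (ENSMUSG00000070417, 107000875 to 107002605), the I7 receptor known to respond to octanal, lies in the same cluster. It stood at 1.53, 2.34, 2.12 and 1.80 CPM in OMP_IGF1R 11, 12, 17 and 18, against 2.39, 0.838, 2.34 and 2.23 CPM in IGF1R_flfl 1, 2, 3 and 13. IGF1R_flfl 2 was far below the others of its group, the groups overlapped, and Olfr2 was not called (log2 0.01, SE 0.31, edgeR adjusted p = 0.994). Without IGF1R_flfl 2 the fold change was -0.23.

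Among the MOR204 genes, 4 of 18 tested members were lower of 29 in all, and the sum ratio was 0.749 (20.6 ± 4.20 CPM in OMP_IGF1R and 27.5 ± 5.09 CPM in IGF1R_flfl). Olfr472 averaged 2.21 ± 0.222 CPM in OMP_IGF1R and 3.96 ± 0.330 CPM in IGF1R_flfl libraries (log2 -0.84, SE 0.14, edgeR adjusted p = 0.00938). Olfr476 averaged 0.254 ± 0.110 CPM in OMP_IGF1R and 1.16 ± 0.270 CPM in IGF1R_flfl libraries (log2 -2.16, edgeR adjusted p = 0.00761), on 17.5 counts per library. Both kept their calls in all fits that left out 1 library. Olfr491 was lower by a log2 fold change of -1.01 (edgeR adjusted p = 0.0262, and up to 0.0661 without OMP_IGF1R 11, 12 or 17 or IGF1R_flfl 3 or 13). Olfr473 changed by -1.19 (edgeR adjusted p = 0.0445), on 11.25 counts per library, and lost its call whichever library was left out (adjusted p of up to 0.133). Next to these, Olfr517 of the MOR268 family averaged 0.197 ± 0.0738 CPM in OMP_IGF1R and 1.0 ± 0.386 CPM in IGF1R_flfl libraries (log2 -2.35, SE 0.42, edgeR adjusted p = 0.0121), on 14.75 counts per library. Olfr516, of the same family, was among the most positive members (log2 0.39, SE 0.51, edgeR adjusted p = 0.699) and was not called.

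**Figure D4:**
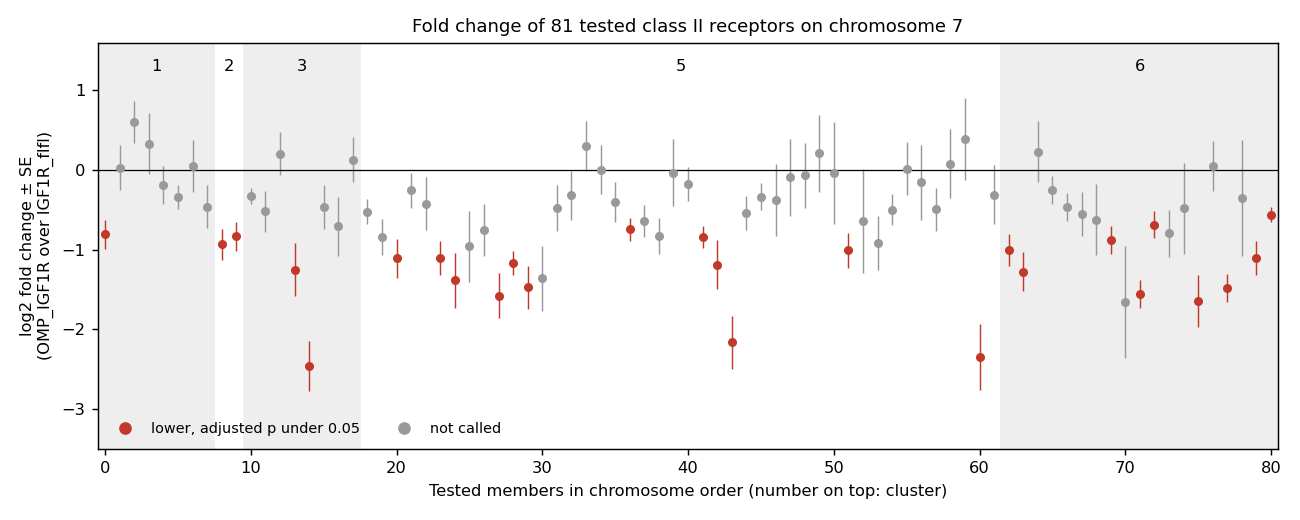
log2 fold change ± SE (OMP_IGF1R over IGF1R_flfl) of the 81 tested members in chromosome order, with cluster numbers on top and called members in red. Called members occur in each of the 5 clusters that had tested members, 9 in cluster 6, 12 in cluster 5, 2 each in clusters 2 and 3, and 1 in cluster 1.

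Cluster 3 held 15 members, of which 8 were tested and 2 were lower. Olfr297 (ENSMUSG00000057067, 86526759 to 86527691), a MOR220 receptor, had the most negative fold change of the members. It stood at 0.663, 0.791, 1.37 and 1.88 CPM in OMP_IGF1R 11, 12, 17 and 18, against 5.40, 7.51, 8.01 and 5.31 CPM in IGF1R_flfl 1, 2, 3 and 13. The groups were far apart (log2 -2.46, SE 0.31, edgeR adjusted p = 0.00431), and the call was kept whichever library was left out. Its closest relative Olfr295 (90.8% identity), named after its values were seen, changed by -0.47 and was not called, and the difference between these relatives was not tested. Olfr303 of MOR104 averaged 1.12 ± 0.362 CPM in OMP_IGF1R and 2.67 ± 1.18 CPM in IGF1R_flfl libraries (log2 -1.25, edgeR adjusted p = 0.048). That call was lost whichever library was left out, at up to 0.138. Olfr309, among the most abundant members, stood at 28.5, 35.6, 29.7 and 26.3 CPM in OMP_IGF1R 11, 12, 17 and 18, against 38.6, 33.0, 40.9 and 38.3 CPM in IGF1R_flfl 1, 2, 3 and 13. OMP_IGF1R 12 was above IGF1R_flfl 2, and the gene was not called (log2 -0.33, SE 0.10, edgeR adjusted p = 0.0827). DESeq2 called Olfr309 lower, as did edgeR without OMP_IGF1R 12.

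Cluster 2 consists of the near copies Olfr291 and Olfr290, and both were lower. Olfr291 stood at 3.52, 2.98, 3.54 and 4.26 CPM in OMP_IGF1R 11, 12, 17 and 18, against 5.72, 9.15, 5.31 and 7.13 CPM in IGF1R_flfl 1, 2, 3 and 13 (log2 -0.93, edgeR adjusted p = 0.0209). Olfr290 stood at 2.96, 3.35, 3.58 and 4.53 CPM in OMP_IGF1R 11, 12, 17 and 18, against 4.89, 7.89, 6.38 and 6.59 CPM in IGF1R_flfl 1, 2, 3 and 13 (log2 -0.83, edgeR adjusted p = 0.0251). The groups did not overlap for either gene. Since 15.7% and 15.8% of their windows are shared, reads may have been counted for either. The call of Olfr291 was lost without OMP_IGF1R 11, 12 or 17 (adjusted p of up to 0.0677), and that of Olfr290 without these or IGF1R_flfl 3 or 13 (up to 0.0798). The members of cluster 4, Olfr520 and Olfr521, were too low to be tested and summed to 0.340 ± 0.143 CPM in OMP_IGF1R and 1.24 ± 0.744 CPM in IGF1R_flfl libraries.

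Cluster 1 had 8 tested members, of which 1 was lower and 0 higher, and its sum ratio was 0.904 (34.1 ± 4.37 CPM in OMP_IGF1R and 37.7 ± 5.53 CPM in IGF1R_flfl). The lower member, Olfr1344, averaged 2.98 ± 0.686 CPM in OMP_IGF1R and 5.23 ± 0.686 CPM in IGF1R_flfl libraries (log2 -0.81, edgeR adjusted p = 0.0286). Its call was lost without OMP_IGF1R 11, 12 or 17 or IGF1R_flfl 1 or 3 (adjusted p of up to 0.0795). Olfr1344 overlaps the predicted gene Gm20715, which had a like fold change (log2 -0.84, edgeR adjusted p = 0.021), and the reads of these genes may not be separable. The abundant Olfr1348 (9.48 ± 1.58 CPM in OMP_IGF1R and 12 ± 1.97 CPM in IGF1R_flfl, log2 -0.34, edgeR adjusted p = 0.216) and Olfr1349 (9.56 ± 2.35 and 9.24 ± 3.92 CPM in the same groups, log2 0.05, edgeR adjusted p = 0.946) were not called. Olfr1346 had the most positive fold change of all tested members, at 5.0, 5.77, 3.94 and 2.88 CPM in OMP_IGF1R 11, 12, 17 and 18, against 3.37, 1.83, 3.57 and 2.82 CPM in IGF1R_flfl 1, 2, 3 and 13. The groups overlapped, and it was not called (log2 0.60, SE 0.26, edgeR adjusted p = 0.204). Olfr5 was also among the most positive (log2 0.33, edgeR adjusted p = 0.653).

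By sequence family, MOR103 had the highest median among families with at least 3 tested members. Its 10 members lie in clusters 1, 5 and 6, all were tested, and their median log2 fold change was 0.02 with 4 of 10 negative. Their sum was 39.3 ± 2.95 CPM in OMP_IGF1R and 41.9 ± 7.56 CPM in IGF1R_flfl libraries, a ratio of 0.938. The medians were -1.25 for MOR104 (3 tested), -1.09 for MOR260, -0.90 for MOR283, -0.79 for MOR252 (3 tested), -0.56 for MOR253, -0.46 for MOR251 (5 tested) and -0.27 for MOR204. A change of scaling shifts all genes of a library alike. Family medians relative to the median of all genes therefore hardly change with it, and they are no check on the scaling. Scaled to mature neuron genes, MOR251, MOR253 and MOR204 of these families turned positive (0.21, 0.070 and 0.37), while MOR103 stood at 0.67 and all genes at 0.63. Differences between families were not tested.

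**Figure D5:**
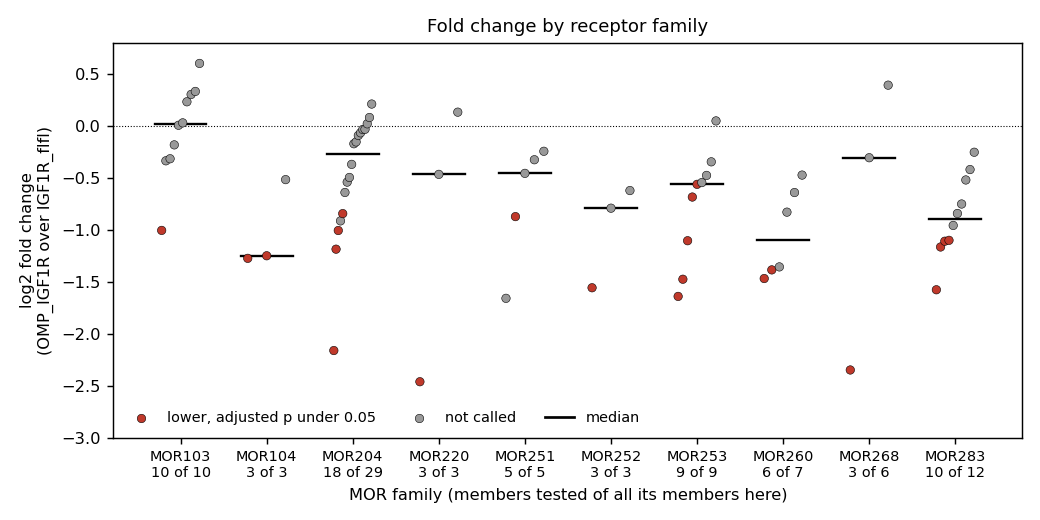
log2 fold change (OMP_IGF1R over IGF1R_flfl) of tested members by MOR family for families with at least 3 tested members, with called members in red and the median as a line. All 10 tested MOR283 members lie below 0, and the MOR103 median is at 0.02; scaled to mature neuron genes, the MOR204, MOR220, MOR251, MOR253 and MOR268 medians turn positive.

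Scaling libraries to the mature neuron genes, which asks how a receptor changed relative to them, moved the median of all genes to 0.63 and that of the members to 0.12. Under it 10 of the 81 tested members were lower and 9 higher, against 0.529% of all genes lower and 80.6% higher. On this scale 16 of the 26 calls were lost, and 31 of the 67 negative fold changes turned positive. The 10 lower members were Olfr297 (log2 -1.82), Olfr517 (-1.72), Olfr476 (-1.54), Olfr46 (-1.03), Olfr705 (-0.97), Olfr533 (-0.93), Olfr53 (-0.87), Olfr1532-ps1 (-0.83), Olfr523 (-0.63) and Olfr706 (-0.55), all of them called in the comparison scaled by TMM as well. The 9 higher ones were Olfr1346 (1.27), Olfr5 (1.0), Olfr711 (1.0), Olfr524 (0.90), Olfr305 (0.83), Olfr292 (0.78), Olfr1349 (0.73), Olfr61 (0.72) and Olfr309 (0.32). The rise of Olfr309 was smaller than the 0.63 of the median gene on this scale.

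Genes of the neurons that carry the receptors moved with the members. Among 24 markers of mature sensory neurons there were 19 lower and 0 higher calls (median log2 -0.65). Their summed level was 12495 ± 762 CPM in OMP_IGF1R and 21930 ± 3170 CPM in IGF1R_flfl libraries, a ratio of 0.570. Without Omp, which the titles name, it was 10526 ± 556 CPM in OMP_IGF1R and 16544 ± 2186 CPM in IGF1R_flfl libraries, a ratio of 0.636. Of 19 genes of odour transduction, the cascade that turns receptor binding into a current, 11 were lower and 0 higher (median -0.49), among them Adcy3, the adenylyl cyclase of the cascade (-0.90). Of these 11, 9 are also among the 19 lower markers of mature neurons, as are all 3 lower genes of the next list. Of 29 genes of receptor choice and trafficking 3 were lower, 1 was higher and the median was 0.02. The chaperones Rtp1 and Rtp2, which carry receptors to the membrane, fell by 0.42 and 0.51 on the log2 scale (edgeR adjusted p = 0.019 and 0.00918). Lhx2 (-0.02), Ldb1 (0.13), Ebf1 (-0.02) and Emx2 (0.14), transcription regulators linked to receptor choice, were not called. Genes of immature neurons were higher in 10 of 16 cases and lower in 0 (median 0.46), and genes of precursors in 8 of 10 and 0 (median 0.69). The part of the share of mature neurons in the members' values was not tested. Of 10 sustentacular genes 0 were called by edgeR, with 0 at an unadjusted p under 0.05.

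A pair of libraries had high levels of genes of tissues outside the epithelium. Markers of muscle reached a sum of 578 CPM in OMP_IGF1R 17, where the rest had 5.37 to 9.29 CPM, and 0 of 5 tested were called (4 at an unadjusted p under 0.05). Markers of olfactory bulb and oligodendrocytes reached a sum of 2017 CPM in IGF1R_flfl 2, where the rest had 141 to 212 CPM, and 1 of 12 tested was called lower. Erythrocyte genes had 0 of 3 called (median log2 -0.05), with 0 at an unadjusted p under 0.05. Without IGF1R_flfl 2 and OMP_IGF1R 17, 20 members were lower, 19 of them among the 26, and the sum ratio was 0.608. Without OMP_IGF1R 12 the number was 12, without OMP_IGF1R 11 it was 15, and 11 of the 26 calls were kept in every fit that left out 1 library. These were Olfr533, Olfr53, Olfr297, Olfr706, Olfr476, Olfr472, Olfr541, Olfr517, Olfr705, Olfr1532-ps1 and Olfr45. The number of calls over all genes also changed when libraries were left out, with the range given in the last section. Whether members lost more calls than other genes was not tested.

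Libraries of a group also differed from each other in which receptors were high. The class I interval summed to 187 and 179 CPM in OMP_IGF1R 11 and 17 and to 82.0 and 92.3 CPM in OMP_IGF1R 12 and 18, and it was highest in IGF1R_flfl 3 (259 CPM) and lowest in IGF1R_flfl 1 (76.7 CPM). Of its 94 tested genes, 83.0% had both OMP_IGF1R 11 and 17 above both OMP_IGF1R 12 and 18. The same order held for 6 of 18 tested MOR204 members (Olfr467, Olfr481, Olfr483, Olfr488, Olfr490 and Olfr510), for 6 of the other 63 members (9.52%) and for 20.6% of all genes. Olfr481, for example, had 2.55 and 2.34 CPM in OMP_IGF1R 11 and 17, 0.791 and 0.960 CPM in OMP_IGF1R 12 and 18, and 3.45 CPM in IGF1R_flfl 3 and 1.05 CPM in IGF1R_flfl 1. IGF1R_flfl 3 was the highest of its group for 11 of 18 MOR204 members, 88 of 94 class I interval genes and 30.6% of all genes. IGF1R_flfl 1 was the lowest of its group for 12 of 18 MOR204 members, 83 of 94 class I interval genes and 20.5% of all genes. This held for 9 of 10 tested MOR283 members, 0 of 10 MOR103 members and 39 of the 81 tested members. In MOR283, 0 of 10 had the order of OMP_IGF1R libraries above, and IGF1R_flfl 3 was highest for 3 of 10.

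IGF1R_flfl 2 was the highest of its group for 7 of 10 tested MOR283 members and the lowest for 0 of them. It was the lowest of its group for 6 of 10 MOR103 members (Olfr1346, Olfr2, Olfr5, Olfr524, Olfr6 and Olfr711) and the highest for 1, Olfr522. Over all genes it was the highest for 26.8% and the lowest for 28.2%. IGF1R_flfl 2 is the library with the high bulb gene level, whose part in these values was not tested. These orders were chosen after the values were seen and are given as a description.

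Igf1r (67952859 to 68226780) and Omp (98143360 to 98145502) also lie on chromosome 7. Omp averaged 1969 ± 224 CPM in OMP_IGF1R and 5386 ± 989 CPM in IGF1R_flfl libraries (SD, n = 4 each; log2 -1.45, edgeR adjusted p = 0.00179). The member nearest to Omp was Olfr520, 1.59 Mb away and not tested, and the nearest tested member was Olfr693, 8.53 Mb away (log2 -0.52, edgeR adjusted p = 0.0787, not called). DESeq2 called Olfr693 lower.

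Some members that were not tested had groups that did not overlap. Over tested genes, this held for 10.3% that were lower and 6.57% that were higher in OMP_IGF1R. The share over untested genes is not given. Olfr521 was at 0 to 0.192 CPM in OMP_IGF1R and at 0.362 to 1.55 CPM in IGF1R_flfl libraries. Olfr714 was at 0.221 to 0.561 CPM in OMP_IGF1R and at 0 to 0.182 CPM in IGF1R_flfl libraries, and Olfr294 was at 0.113 to 0.408 CPM in OMP_IGF1R and at 0 to 0.0454 CPM in IGF1R_flfl libraries. With every gene of at least 1 count tested, Olfr294 was called higher (fitted log2 3.29), on 3 counts per library on average. Olfr714 and Olfr294 thus had higher values in OMP_IGF1R libraries, at levels of a few reads. These genes were named after their values were seen, and the share of all genes called higher in the fit that called Olfr294 is not given.

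Sequence upstream of the transcription start was available for few members. RefSeq start windows (GRCm38.p6) were found for 97 members, but 75 began at the start codon and 9 within 500 bases of it, which leaves 13 with a start more than 500 bases upstream. Motifs were searched on both strands over the 250 bases before the start. A long motif meant to resemble sites of O/E factors had 3 free bases in its middle. It was in 0 of 13 and in 0.673% of 32851 windows of all genes. The O/E-like motif CCCNNGGGA has 2 free bases there, so it is not a shorter form of the long motif. It was in 2 of 13 (5.60% of all). The count of the long motif does not bear on sites with 2 free bases. TAATTA (of the kind bound by homeodomain proteins) was in 2 of 13 (4.84%) and TAATGA in 4 of 13 (8.59%). The O/E-like motifs can overlap, and a match is a run of letters and no shown site. The windows of 3 called members, Olfr53 (chr7:140646202-140646451, plus strand), Olfr46 (chr7:140601090-140601339, plus strand) and Olfr701 (chr7:106813879-106814128, plus strand), are printed with that of the abundant Olfr536 (chr7:140507319-140507568, minus strand), 5′ to 3′ on the gene's strand. Capitals mark TAATGA in Olfr53 and Olfr701, read on the other strand as TCATTA, and CCCNNGGGA in Olfr536. The windows of Olfr53 and Olfr46, both MOR253 receptors that fell, could be aligned over 178 bases at 74.2% identity, and Olfr46 holds none of these motifs.
Olfr53: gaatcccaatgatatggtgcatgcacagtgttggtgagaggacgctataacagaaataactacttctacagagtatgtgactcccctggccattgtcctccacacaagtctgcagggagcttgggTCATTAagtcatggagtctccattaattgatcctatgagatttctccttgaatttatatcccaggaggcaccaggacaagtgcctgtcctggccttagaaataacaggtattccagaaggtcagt
Olfr46: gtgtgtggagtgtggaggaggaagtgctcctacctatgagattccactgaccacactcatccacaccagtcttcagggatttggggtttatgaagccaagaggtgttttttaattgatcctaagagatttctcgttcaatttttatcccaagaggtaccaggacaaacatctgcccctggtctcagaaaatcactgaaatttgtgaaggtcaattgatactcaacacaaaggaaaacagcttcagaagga
Olfr701: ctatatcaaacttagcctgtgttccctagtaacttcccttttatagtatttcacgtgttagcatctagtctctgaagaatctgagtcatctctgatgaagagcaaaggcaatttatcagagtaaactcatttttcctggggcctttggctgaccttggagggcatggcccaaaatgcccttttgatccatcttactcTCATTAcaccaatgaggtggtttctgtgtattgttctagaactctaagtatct
Olfr536: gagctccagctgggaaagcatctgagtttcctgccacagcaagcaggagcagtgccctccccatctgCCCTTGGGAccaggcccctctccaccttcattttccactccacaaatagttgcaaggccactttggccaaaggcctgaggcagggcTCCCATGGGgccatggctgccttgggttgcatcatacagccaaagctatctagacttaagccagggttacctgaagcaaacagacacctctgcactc

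The authors' deposited table of their own comparison gave an adjusted p for 63 members. Of these 26 were under 0.05 with a negative fold change and 0 with a positive one, in the authors' deposited table. Of the 26 members called here, 22 were also under 0.05 in the authors' deposited table. The direction is not named in the headers of the authors' deposited table, and 98.4% of genes had the same sign there as here.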

How the data were processed

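RNA from dissected olfactory epithelium was sequenced as 100-base read pairs from stranded, poly(A)-selected libraries, per the labels' protocols. The deposited values are raw counts, 1 column for each library. The submitters' processing notes name Trim Galore 0.3.7, TopHat2 2.0.14, SAMtools 1.2, DESeq2 and GRCm38 (mm10). For the counting step and its strand setting the sources used here name nothing, so overlapping and near-identical genes may share reads. The authors' deposited comparison holds, per the file headers, log2 fold changes with errors, a mean signal, a test statistic (a score), and raw and adjusted p-values.

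Counts were tested with edgeR 4.0.16 in R 4.3.3 (quasi-likelihood F-test, TMM, filterByExpr, Benjamini-Hochberg over 17381 genes, threshold 0.05), after the code was tested on simulated data. The SE given with an edgeR log2 fold change was worked back from the test, as its absolute value over the square root of F. Total counts were 18802471 to 27793375 per library. A count of 0 allows up to 3 counts, which covers counting error only. The labels do not tie libraries to separate animals, so a p-value reflects how much these libraries vary and that may be technical variation. Serial numbers in the titles run in separate blocks by group, so a batch that follows them cannot be told apart from the group.

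The members, lists and tests were chosen with earlier results of these data known. Named are all called members, the 10 of highest mean CPM, the highest of each cluster, Olfr2, Olfr17 and the 3 most negative and 3 most positive members not called; other genes were named after their values were seen. Alternatives were DESeq2 1.42.0, other scalings and filters, and leaving out libraries. Marker lists had 4 of their genes without a count row under the listed symbol (Gfy, Grk3, Hbb-bs and Hbb-bt). No batch is given in the labels.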

Additional observations from a re-analysis of the deposited data

Results flagged for a closer look

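Of 88 groups of 4 libraries examined (named members and cluster sums in each group), 8 had a library far from the others. The rule marks about 1 in 20 independent groups by chance. These groups were not independent, since cluster sums hold named members, so 8 of 88 cannot be set against that rate. IGF1R_flfl 2, the library with the high level of bulb genes, was apart in 4 of the 8. Olfr303 stood at 4.42 CPM in IGF1R_flfl 2 and between 1.88 and 2.32 CPM in the rest of that group. Olfr702 stood at 4.27 CPM in IGF1R_flfl 2, against 2.46 to 2.68 CPM in the others. In the opposite direction, Olfr2 stood at 0.838 CPM in IGF1R_flfl 2, against 2.23 to 2.39 CPM, and cluster 1 summed to 29.5 CPM there, against 39.3 to 41.1 CPM. Cluster 6 summed to 278 CPM in IGF1R_flfl 1, with the rest between 196 and 209 CPM.

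OMP_IGF1R 18 was apart in 2 groups. Olfr533 stood at 12.3 CPM in it, with the rest between 18.4 and 19.6 CPM. Olfr536, of the same family, was lowest of its group in the same library. Olfr709-ps1 stood at 0.806 CPM in OMP_IGF1R 18, against 0.204 to 0.264 CPM in the others. Olfr517 stood at 0.306 CPM in OMP_IGF1R 11, against 0.151 to 0.177 CPM in the others, a difference of a few reads.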

How the results depend on the processing

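The number of members called was 26, and it was 25 with DESeq2 size factors, 24 with upper quartiles, 19 scaled to mature neuron genes (10 lower, 9 higher), 24 with every gene of 1 count, 25 with 1 CPM in 4 libraries and 29 with DESeq2. Leaving out 1 library gave 12 (without OMP_IGF1R 12) to 26, with 15 without OMP_IGF1R 11. The members' median was -0.52, ranged from -0.45 to -0.64 when 1 library was left out and was 0.12 scaled to mature neuron genes, where the sum ratio was 0.955 in place of 0.612. Over all genes 1425 were called, 14104 scaled to mature neuron genes, 2140 with DESeq2 and 569 to 1477 when 1 library was left out. Scaled to mature neuron genes, 31 of 81 tested members turned positive and 0 negative; of the genes the rule names, these were Olfr1348 (0.30), Olfr309 (0.32) and Olfr541 (0.070). Signs turned for Olfr1349 (-0.20 to 0.23 leaving out 1 library) without OMP_IGF1R 18 (-0.14), without IGF1R_flfl 2 (-0.20) and without IGF1R_flfl 2 and OMP_IGF1R 17 (-0.13). They turned for Olfr2 (-0.23 to 0.12) without OMP_IGF1R 12 (-0.095), OMP_IGF1R 17 (-0.026), IGF1R_flfl 2 (-0.23) or both IGF1R_flfl 2 and OMP_IGF1R 17 (-0.27). The cause was not tested, except that the mature neuron scaling lifts the median of all genes to 0.63 by its construction. No paired analysis was possible because the groups share no replicate number. Members of few counts limit what can be called, since 30 were not tested.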
